A study of Mus musculus with 2 samples.

Results

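Retinoic acid is made from vitamin A inside embryonic tissues, and the 10 genes described here make it, bind it and break it down. They were taken by symbol, and none by its measured value, from the 22028 protein-coding genes in the tables. The choice was made with earlier results of these data known. All 10 symbols were found in both libraries. The tissue was the embryonic facial prominence, from which the face forms, of B6NCrl mouse embryos aged 12.5 days, measured by polyA plus RNA-seq. Replicate 1 was a pool of 120 embryos and replicate 2 a pool of 88, each of mixed sex and labelled healthy, and no mutation or treatment is given for either. These libraries form 1 group, so there is no comparison between conditions, and an exact 2-sided test on 2 libraries cannot go below p = 0.5. Summed expected counts were 28705073 in replicate 1 and 41092194 in replicate 2. Levels are given in TPM, a transcript abundance corrected for length, so genes can be compared. All 8 facial mesenchyme markers listed for a check of the label (among them Msx1, Prrx1 and Alx1) had at least 1 TPM in both libraries. Their summed level was 1061 and 996 TPM in replicates 1 and 2. At least 1 TPM in both was also reached by 60.7% of all protein-coding genes. The markers were chosen with earlier results of these data known, so this is a weak check.

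Retinol enters cells and is oxidised to retinaldehyde, largely by RDH10 in the embryo, while DHRS3 turns retinaldehyde back into retinol. Aldehyde dehydrogenases of the ALDH1A family then make retinoic acid, CRABP proteins carry it in the cytoplasm, and CYP26 enzymes oxidise it for removal. Retinoic acid that reaches the nucleus binds receptors of the RAR and RXR families, which sit on repeated DNA half-sites. In the embryonic face the signal is known from the eye and the nasal pits, where it acts on the surrounding mesenchyme, and in mice both too little and too much of it disturbs the face and palate.

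The facial tissue held transcripts for every step, and the levels of the steps differed widely. The binding proteins Crabp1 and Crabp2 together reached 822 ± 42.6 TPM (SD, n = 2 here and throughout), the 3 Aldh1a genes 129 ± 16.8 TPM and the 3 Cyp26 genes 30.6 ± 1.67 TPM. The binding genes exceeded the breakdown genes 24.9-fold in replicate 1 and 28.9-fold in replicate 2, and the Aldh1a genes exceeded the breakdown genes 3.68-fold and 4.78-fold. The limit of detection was set at 1 TPM in each pool, which 9 of the 10 members and 60.7% of all protein-coding genes reached. Cyp26c1 was the member that did not. In bulk tissue, fewer cells that express a gene and less RNA per cell cannot be told apart.

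**Figure D1:**
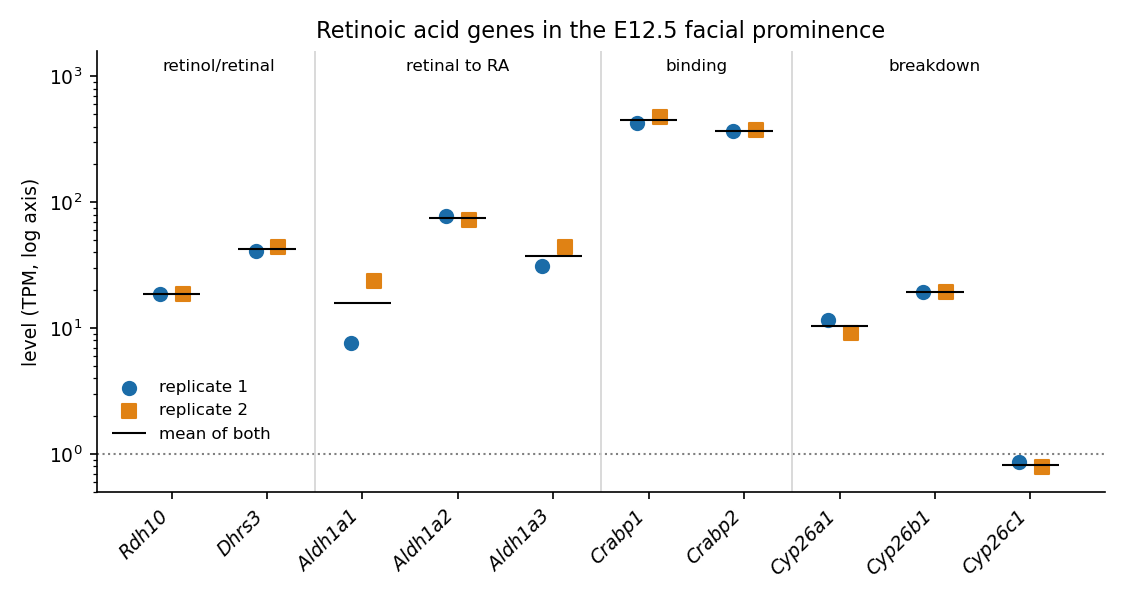
Levels of the 10 genes in TPM on a log axis, grouped by role, with a circle for replicate 1, a square for replicate 2 and a line at their mean; the dotted line marks 1 TPM. Crabp1 and Crabp2 stand highest at 367 to 476 TPM, Cyp26c1 alone lies under 1 TPM, and the pools stand furthest apart for Aldh1a1.

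Ordered by mean level, Crabp1 came before Crabp2, Aldh1a2, Dhrs3, Aldh1a3, Cyp26b1, Rdh10, Aldh1a1, Cyp26a1 and Cyp26c1. The values of both replicates overlapped between Dhrs3 and Aldh1a3, between Rdh10 and Aldh1a1, and between Aldh1a1 and Cyp26a1, so these neighbours did not differ beyond their spread. All other neighbours in the order were apart in both libraries, Cyp26b1 (19.3 and 19.4 TPM in replicates 1 and 2) and Rdh10 (18.7 and 18.6 TPM) only narrowly. In release M4 of the annotation this last pair changed places, at 17.6 TPM for Cyp26b1 and 19.7 TPM for Rdh10 on average.

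Rdh10, the membrane-bound retinol dehydrogenase whose loss in mice disturbs the nasal region, lies on chromosome 1 (16105774 to 16133734 on mm10, as all positions here). It stood at 18.7 and 18.6 TPM in replicates 1 and 2, from 1175 and 1646 counts, and the pools differed by less than counting error. Dhrs3, the retinaldehyde reductase of the opposite step (chromosome 4, 144892827 to 144928209), stood higher, at 41.0 and 44.3 TPM in replicates 1 and 2, from 1055 and 1734 counts. The level of Dhrs3 was thus 2.19 times that of Rdh10 in replicate 1 and 2.38 times in replicate 2. Transcripts of the reductase gene thus exceeded those of the dehydrogenase gene in each library. The distance was smaller when only transcripts annotated as protein-coding were summed. These stood at 29.7 and 28.3 TPM for Dhrs3 and at 17.8 and 17.4 TPM for Rdh10 in replicates 1 and 2.

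Aldh1a2, the retinaldehyde dehydrogenase of trunk and heart mesenchyme and of the meninges, was the leading gene of its family (chromosome 9, 71215789 to 71296243). It stood at 78.3 and 72.4 TPM in replicates 1 and 2, from 3126 and 4101 counts. Aldh1a3, known from the ventral retina and the nasal pits (chromosome 7, 66390890 to 66427517), stood at 31.1 and 44.5 TPM in replicates 1 and 2, from 1626 and 3290 counts. Aldh1a1, known from the dorsal retina and the lens (chromosome 19, 20492715 to 20643465), stood at 7.61 and 23.9 TPM in replicates 1 and 2, from 274 and 1220 counts. Aldh1a2 held 67.0% of the summed Aldh1a level in replicate 1 and 51.5% in replicate 2, Aldh1a3 held 26.5% and 31.6%, and Aldh1a1 held 6.51% and 17.0%. The order of the 3 genes was the same in both pools, while the distance from Aldh1a2 to Aldh1a1 was 10.3-fold in replicate 1 and 3.03-fold in replicate 2.

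Crabp1, a cytoplasmic retinoic acid carrier known from migrating neural crest and its mesenchyme (chromosome 9, 54764748 to 54773110), stood at 425 and 476 TPM in replicates 1 and 2, from 5514 and 8751 counts. It ranked 259 of 22028 protein-coding genes by mean level. Crabp2, which is known to deliver retinoic acid to its nuclear receptor (chromosome 3, 87948666 to 87953376), stood at 367 and 376 TPM in replicates 1 and 2, from 5611 and 8166 counts, and ranked 334. Crabp1 held 53.7% of the level of the pair in replicate 1 and 55.9% in replicate 2. Crabp1 thus lay above 98.8% of protein-coding genes and Crabp2 above 98.5%, whereas the enzymes lay above 37.1% (Cyp26c1) to 89.6% (Aldh1a2) of them. The coding sequences of the carriers are 71.5% identical, with no identical run over 11 bases.

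Cyp26b1, the breakdown enzyme whose loss in mice leads to cleft palate (chromosome 6, 84571414 to 84593908), led its family at 19.3 and 19.4 TPM in replicates 1 and 2, from 1511 and 2160 counts. Cyp26a1, the family member that retinoic acid itself induces (chromosome 19, 37697798 to 37701536), stood at 11.6 and 9.23 TPM in replicates 1 and 2, from 319 and 369 counts. Cyp26c1, known from the hindbrain and the anterior head, lies 4399 bases before Cyp26a1 on the same strand (37685581 to 37693398), with no annotated gene between them. It stood at only 0.86 and 0.79 TPM in replicates 1 and 2. These values rest on 26 counts in replicate 1 (exact Poisson interval 17.0 to 38.1) and 34 in replicate 2 (23.5 to 47.5), so the gene was measured above 0 in each. Cyp26a1 exceeded its neighbour 13.5-fold in replicate 1 and 11.7-fold in replicate 2. Cyp26b1 held 60.7% of the summed breakdown level in replicate 1 and 66.0% in replicate 2, Cyp26a1 held 36.6% and 31.3%, and Cyp26c1 held 2.70% and 2.68%.

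**Figure D2:**
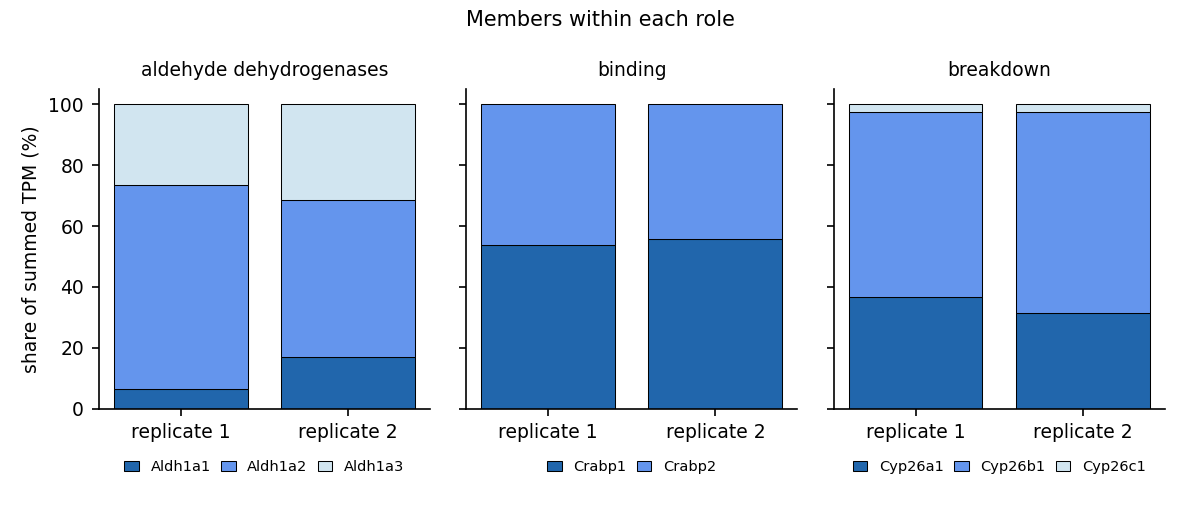
Share of each gene in the summed TPM of its role, in percent, with replicate 1 left and replicate 2 right in each panel. Aldh1a1 takes 6.51% of the Aldh1a level in replicate 1 and 17.0% in replicate 2, whereas the shares within the binding and breakdown roles differ less between the bars.

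The promoter of Cyp26a1 is shown because it is the classical site at which retinoic acid controls its own removal. Promoter windows from RefSeq (build GRCm38.p6, the assembly of mm10) reached from 250 bases before to 50 after the gene start and were given for 7 of the 10 members in 10 windows; Rdh10, Aldh1a3 and Crabp2 had no entry. Both strands were searched for direct repeats of the half-site AGGTCA, of its variant AGTTCA, of its variant GGGTCA and of its variant GGTTCA, in any combination, with 5, 2 or 1 bases between them. The upstream sequence of Cyp26a1 (chr19:37697558-37697797, plus strand) is printed with the repeat in capitals.
Cyp26a1 upstream: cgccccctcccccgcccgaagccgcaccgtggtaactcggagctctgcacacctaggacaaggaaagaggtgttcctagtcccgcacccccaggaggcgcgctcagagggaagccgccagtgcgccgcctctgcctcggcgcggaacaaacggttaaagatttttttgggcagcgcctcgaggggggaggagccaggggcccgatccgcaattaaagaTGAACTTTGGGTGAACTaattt
The repeat with 5 bases between its half-sites lies at 37697776 to 37697792, on the strand opposite to the gene. Such a repeat was found in 32 of 32851 windows of all genes, 0.0974%, and in 1 of the 10 windows of members. That 1 window holds the classical site of Cyp26a1, so the match is no independent finding. Repeats with 2 or 1 bases between the half-sites were in 0 windows of members, and in 0.268% and 0.222% of all windows. The receptor gene Rarb, the other classical target, holds a repeat of the same spacing in its window. Both elements are set side by side, each on the strand that reads the repeat forward (chr19:37697770-37697798 minus for Cyp26a1, chr14:16575507-16575535 minus for Rarb), with the half-sites in capitals.
Cyp26a1 element: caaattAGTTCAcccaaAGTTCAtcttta
Rarb element: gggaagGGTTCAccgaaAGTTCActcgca
A match describes the letters only and is no measure of binding. At the level of transcripts Rarb stood at 28.1 and 29.1 TPM in replicates 1 and 2 (33.2 and 36.3 TPM in release M4), higher than Cyp26a1 in each library.

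The transcript tables divide the level of each gene among its annotated transcripts. Aldh1a1 has 6 annotated transcripts, of which 5 begin between 20492715 and 20492760, and the other, Aldh1a1-201, begins at 20601961, 109246 bases further along. Aldh1a1-201 received 274 of the 274 counts of the gene in replicate 1 and 1212.47 of 1220 in replicate 2. Of the other transcripts, Aldh1a1-206, which encodes the same length of 1503 coding bases, had 0 counts in replicate 1 and 6.53 in replicate 2. By the deposited percentages Aldh1a1-201 carried 100% of the gene in replicate 1 and 99.4% in replicate 2, so nearly all of the signal lay on the downstream start in each pool. By the posterior mean estimate the shares were 93.6% and 98.0%.

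The RefSeq windows for both starts of Aldh1a1 are shown because the levels separate the starts so clearly. The downstream one ends before the first annotated exon base in it. The upstream one ends before its RefSeq start. The first upstream exon of release M21 begins further along, at 20492715, past the searched window. Capitals mark CCAAT and ATAAAA on the gene's strand, which were chosen for search after the sequences had been read.
Aldh1a1 downstream start: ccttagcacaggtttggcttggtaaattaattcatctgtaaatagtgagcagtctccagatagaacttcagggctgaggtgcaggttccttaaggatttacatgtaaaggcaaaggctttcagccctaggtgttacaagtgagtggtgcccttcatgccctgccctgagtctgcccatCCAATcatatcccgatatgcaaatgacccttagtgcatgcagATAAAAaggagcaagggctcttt
Aldh1a1 upstream start: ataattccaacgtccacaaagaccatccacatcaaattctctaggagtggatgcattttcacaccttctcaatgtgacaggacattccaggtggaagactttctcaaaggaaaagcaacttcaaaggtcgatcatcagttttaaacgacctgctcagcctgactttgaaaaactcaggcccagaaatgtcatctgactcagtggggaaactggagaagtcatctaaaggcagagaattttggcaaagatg
The window of the downstream start is chr19:20601718-20601960 and that of the upstream start chr19:20492333-20492582, both on the plus strand. CCAAT lies at 20601896 to 20601900 and ATAAAA at 20601938 to 20601943. Another CCAAT lies at 20601966 to 20601970, in the searched window but past the printed stretch. ATAAAA shares 5 letters with the TATA motif TATAAA, so that both can match at overlapping places. On both strands CCAAT was found in 37.4% of all windows, ATAAAA in 18.5% and TATAAA in 13.6%, so these matches are common. The upstream window held none of the motifs searched. It stops short of the upstream starts of release M21, so the bases next to those starts were not searched.

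Transcripts of the other members divided as follows. Aldh1a2, Crabp1 and Cyp26c1 have 1 annotated transcript each, and Crabp2-201 carried 99.4% of Crabp2 in replicate 1 and 99.3% in replicate 2. The coding transcript Rdh10-201 carried 95.2% and 93.7% of Rdh10, beside a transcript with a retained intron. Aldh1a3 was split between Aldh1a3-201 (74.1% in replicate 1 and 73.6% in replicate 2), with 1536 coding bases, and Aldh1a3-203 (25.9% and 26.4%), which ends inside the gene and has 528 coding bases. The split of Aldh1a3 was close in both pools although its level was not. Cyp26a1-201 carried 81.9% of Cyp26a1 in replicate 1 and 85.6% in replicate 2, and the remainder was given to a transcript with a retained intron that had only 21.75 and 19.44 counts.

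Dhrs3 was the member with the most divided signal, and all of its 7 transcripts had a share above 0 in both libraries. Dhrs3-207, with 828 coding bases, led in replicate 1 at 33.1%, against 25.6% in replicate 2. Dhrs3-201, annotated as a target of nonsense-mediated decay, a pathway that removes messages with early stop codons, led in replicate 2 at 28.8%, against 21.2% in replicate 1. Dhrs3-206, with 906 coding bases, stood at 20.7% in replicate 1 and 24.8% in replicate 2. Transcripts annotated as protein-coding together carried 72.3% of Dhrs3 in replicate 1 and 63.8% in replicate 2, that is 29.7 and 28.3 TPM. In TPM, the higher gene level of Dhrs3 in replicate 2 was thus not found in the sum of its coding transcripts. By counts these had 752.6 of 27887968 gene counts in replicate 1 and 1116.73 of 39819334 in replicate 2, a slightly higher share in replicate 2. The division of reads among transcripts is an estimate, so the direction for the coding transcripts is not settled.

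**Figure D3:**
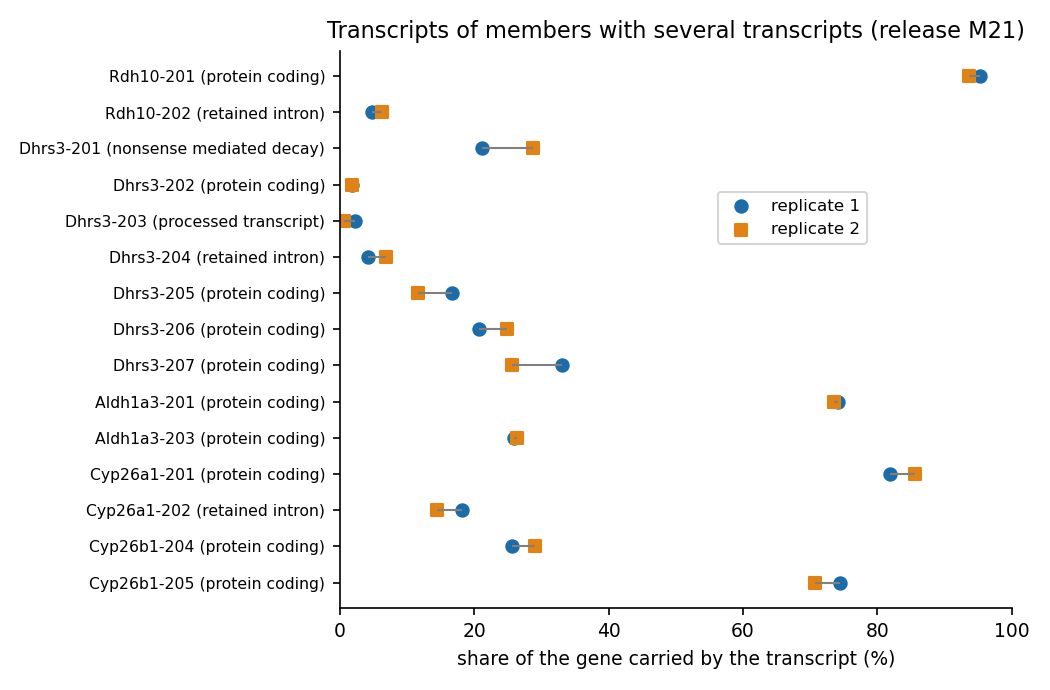
Share of each gene carried by each of its release M21 transcripts, in percent, for members with more than 1 transcript above 1% (circle, replicate 1; square, replicate 2), with the annotated type in brackets. Dhrs3 is spread over 7 transcripts whose order differs between the pools, while Aldh1a3 keeps the same split of about 74% and 26%.

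The transcripts assigned to Cyp26b1 depended on the annotation. In release M21, Cyp26b1-205 carried 74.4% in replicate 1 and 70.7% in replicate 2 and Cyp26b1-204 carried 25.6% and 29.1%. The transcripts with the upstream start, Cyp26b1-201 and Cyp26b1-202, had 0 counts in replicate 1 and 5.3 and 0 counts in replicate 2. In release M4 the transcript that corresponds to Cyp26b1-202 carried 94.6% in replicate 1 and 95.9% in replicate 2. Cyp26b1-205 ends 530 bases beyond Cyp26b1-202 in M21, and the M4 form of Cyp26b1-202 was longer than its M21 form by the same 530 bases. A choice of start for Cyp26b1 can therefore not be read from these shares.

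Gene levels of the members differed little between the annotation releases. The M21 level over the M4 level lay between 0.948 and 0.956 for 8 members in both replicates, which is near the shift of all detected protein-coding genes (median log2 ratio -0.06 in each replicate). Cyp26a1 (1.11 in replicate 1 and 1.07 in replicate 2) and Cyp26b1 (1.09 and 1.11) went the other way, with 319 counts in M21 and 308 in M4 for Cyp26a1 and 1511 and 1422 for Cyp26b1 in replicate 1. A log2 ratio of 0.5 in size, the same way in both replicates, was reached by 0 of the 9 detected members and by 6.16% of detected genes. Gene-level expected counts of all 10 members were whole numbers in both libraries, with none of the fractions that arise where reads are divided between genes. This includes Aldh1a1 and its relative Aldh1a7, whose coding sequences are 91.8% identical with a longest identical run of 100 bases. The antisense gene C730002L08Rik, which overlaps Aldh1a1, had 1 count in each library.

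Among the members, the embryo pools differed most in Aldh1a1. The ratio of (TPM + 1) in replicate 1 over that in replicate 2 was -1.53 on the log2 scale, and it was the lowest but 1 of the 13382 genes detected in both libraries. A log2 ratio of 1 in size was passed by 1 of the 9 detected members, Aldh1a1, and by 0.157% of detected genes, with 0.0971% on the side lower in replicate 1. The count ratio of Aldh1a1 was 0.321 (exact 95% interval 0.280 to 0.366, counting error only). Aldh1a3 lay on the same side at -0.50 (count ratio 0.706, interval 0.665 to 0.749), while Aldh1a2 lay on the other at 0.11 (1.09, interval 1.04 to 1.14). The values set 1 library against 1 library and have no replicate check.

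The remaining members differed less. The log2 ratio of Cyp26a1 was 0.31, higher in replicate 1 (count ratio 1.23, interval 1.06 to 1.44), and Crabp1 and Dhrs3 were lower in replicate 1, at -0.16 (interval 0.870 to 0.931) and -0.11 (0.804 to 0.938). For Rdh10, Crabp2, Cyp26b1 and Cyp26c1 the interval held 1, and that of Cyp26c1 was wide at 0.629 to 1.87. The middle 90% of detected genes lay between -0.26 and 0.29. An interval that leaves out 1 was found for 6 of 10 members, 4 lower and 2 higher in replicate 1. The share was 24.9% among all protein-coding genes with counts (12.2% lower and 12.8% higher). It was 31.1% among those with a mean count of at least 100. The interval narrows as counts rise, and these shares are not matched to the members by count. An excess among the members can therefore not be read from them. When counts were scaled on the ERCC spike-ins (standard RNAs put into the samples), the split was 2 lower and 5 higher. The intervals of Dhrs3 (0.877 to 1.02) and Crabp1 (0.949 to 1.02) then held 1, while Rdh10, Crabp2 and Cyp26b1 came out above 1. The log2 ratio of (TPM + 1) of Dhrs3 was 0.02 with spike-in scaling, on the other side of 0 from its value without it. Aldh1a1, Aldh1a2, Aldh1a3 and Cyp26a1 kept their side of 1 under every scaling tried, namely summed counts, TMM, median of ratios and spike-ins.

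**Figure D4:**
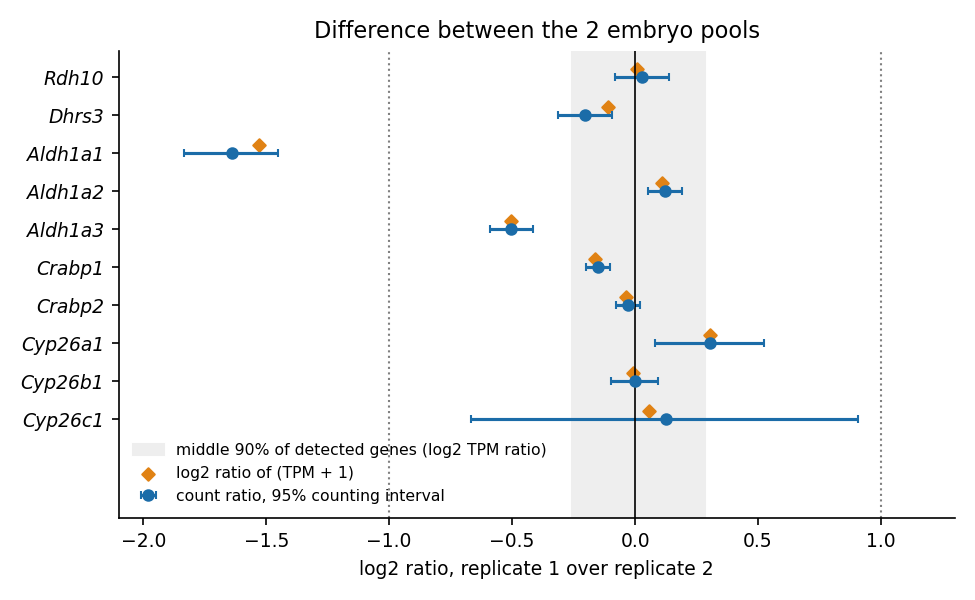
Log2 ratio of replicate 1 over replicate 2 for each gene, as count ratio with its exact 95% counting interval (circles) and as ratio of TPM + 1 (diamonds); the grey band holds the middle 90% of detected genes and dotted lines mark a log2 ratio of 1 in size. Aldh1a1 lies past the left dotted line, Aldh1a3 lies left of the band, and Cyp26a1 reaches just beyond it on the right.

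Markers of the lens, the retina and pigment cells moved in the same direction as Aldh1a1 and Aldh1a3. The marker lists were chosen with earlier results of these data known, so this shared direction is not an independent observation. The 4 lens markers (all 4 detected, led by Cryaa, Cryba1 and Crybb1) summed to 204 and 486 TPM in replicates 1 and 2. The 4 retina markers (4 detected, among them Pax6 and Rax) summed to 29.7 and 40.3 TPM, and the 4 pigment cell markers (3 detected, led by Pmel, Dct and Mitf) to 28.5 and 52.0 TPM. All 12 were lower in replicate 1 and none was at 0. The nasal and olfactory markers (4 of 4 detected, among them Sp8 and Neurog1) summed to 15.7 and 15.0 TPM in replicates 1 and 2, and the 5 epithelial markers to 299 and 313 TPM. Markers of the meninges, where Aldh1a2 is known, summed to 33.3 and 31.7 TPM, and those of the heart to 7.10 and 5.71 TPM. Neither list had a shared direction. In the meninges list Foxc2 was higher in replicate 1 (23.4 and 20.9 TPM), Foxc1 lower (8.19 and 9.08 TPM) and Zic1 equal (1.67 TPM in each). In the heart list Myh6 (2.54 and 1.74 TPM) and Myl7 (2.54 and 1.56 TPM) were higher in replicate 1 and Nkx2-5 (2.02 and 2.41 TPM) was lower. Neuronal markers (4 of 4 detected) were higher in replicate 1, at 364 and 272 TPM in replicates 1 and 2, and the inner ear markers (2 of 3 detected) summed to 47.8 and 26.5 TPM. Most of the inner ear sum was Oc90 (40.9 and 17.9 TPM), while Otx2 was lower in replicate 1 (6.04 and 8.11 TPM). The 8 facial mesenchyme markers spread over both directions, with log2 ratios from -0.54 to 0.99. Markers of endothelium (68.1 and 68.9 TPM), macrophages (37.5 and 38.5 TPM) and red cells (10401 and 9553 TPM) were also present. The part of any of these cell types in the levels of the Aldh1a genes was not tested.

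**Figure D5:**
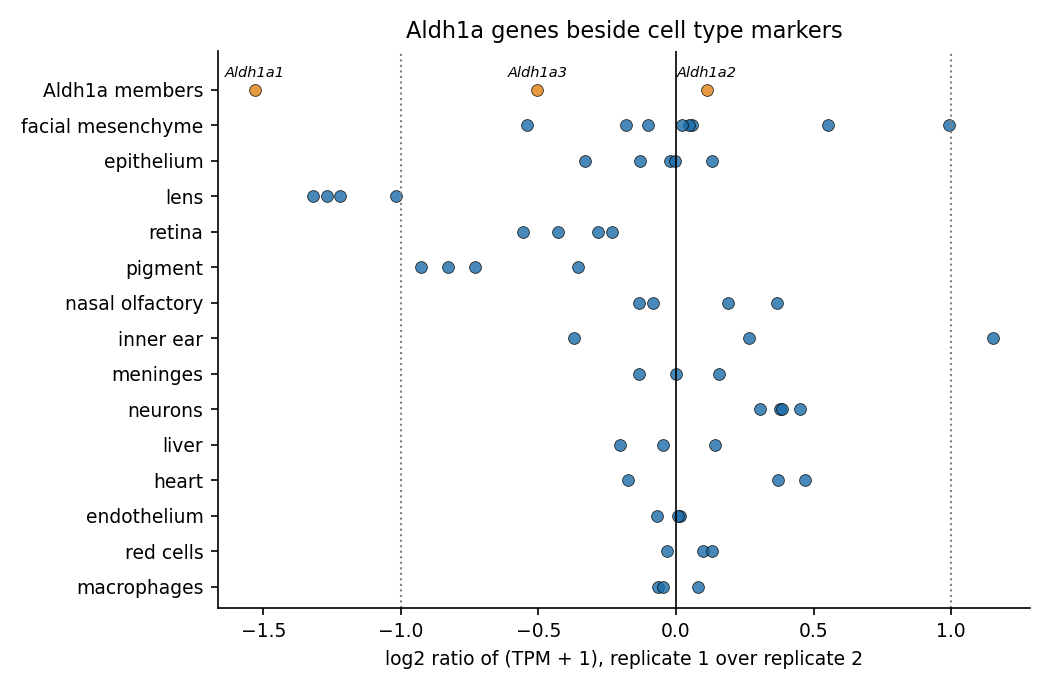
Log2 ratio of TPM + 1 in replicate 1 over replicate 2 for the 3 Aldh1a genes (top row) and for each marker of 14 cell types (1 point per gene); dotted lines mark a log2 ratio of 1 in size. All lens, retina and pigment markers lie left of 0, as do Aldh1a1 and Aldh1a3, whereas neuronal markers lie right of 0. The marker lists were chosen with earlier results of these data known.

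The genes that bring vitamin A to the members were present in part. Of 12 genes of retinol entry, transport and storage, 5 were detected, beside 60.7% of all protein-coding genes. The retinol uptake receptor Stra6 stood at 23.6 and 29.8 TPM in replicates 1 and 2 (interval of the count ratio 0.715 to 0.830). Dgat1, which can esterify retinol among other substrates, stood at 67.2 and 56.5 TPM. Lrat, the main enzyme of retinol storage, was near 0, with 7 counts in each library, as were the carotene-cleaving enzymes Bco1 (5 and 15 counts) and Bco2 (1 and 5 counts). The serum carriers Rbp4 (1.81 and 1.97 TPM in replicates 1 and 2) and Ttr (5.54 and 5.14 TPM) were low, beside liver markers that summed to 4.80 and 4.82 TPM.

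Among 15 other enzymes that can act on retinol or retinaldehyde, 7 were detected, beside 60.7% of all protein-coding genes. Adh5, whose main substrate is a formaldehyde adduct, was highest at 185 and 186 TPM in replicates 1 and 2, followed by Dhrs4 at 69.6 and 72.0 TPM (52.0 and 53.0 TPM in release M4) and Rdh14 at 32.8 and 33.2 TPM. Rdh13 (22.8 and 20.2 TPM) and Rdh11 (19.4 and 19.2 TPM) were near the level of Rdh10, and Rdh5 (11.5 and 11.1 TPM) was below it. For Adh4, Rdh7, Rdh16 and Dhrs9 each library held 0 counts (1-sided 95% upper limit for a count of 0: 3 counts), and the retinol-oxidising Adh1 (0.71 and 0.45 TPM) and Adh7 (0.31 and 0.64 TPM) were under 1 TPM. Of 4 related aldehyde dehydrogenases, Aldh2, which clears acetaldehyde, stood at 203 and 184 TPM in replicates 1 and 2 (139 and 123 TPM in release M4). Aldh1a7 had 1.96 and 4.32 TPM (interval of the count ratio 0.345 to 0.599), on the same side as Aldh1a1.

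All 6 retinoid receptor genes were detected, beside 60.7% of all protein-coding genes. Rarg was highest at 96.4 and 94.9 TPM in replicates 1 and 2, followed by Rxrb at 54.9 and 56.7 TPM and Rara at 38.4 TPM in each. Rxra (11.6 and 12.4 TPM) and Rxrg (10.7 and 10.9 TPM) were lowest. Their summed level was 239.9 and 242 TPM in replicates 1 and 2. A log2 ratio of 1 in size was passed by 0 of 6 and by only 0.157% of all detected protein-coding genes. Fabp5, a fatty acid carrier that also binds retinoic acid, stood at 323 and 289 TPM, near the level of Crabp2. Por, which feeds electrons to microsomal cytochromes such as the CYP26 enzymes, stood at 77.3 and 77.7 TPM in replicates 1 and 2.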

How the data were processed

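PolyA plus RNA-seq of 2 biological replicates was used. The authors deposited, per the file headers, an expected count (estimated reads per gene, not normalized), TPM as maximum-likelihood and posterior mean estimates, and the percent of a gene carried by each transcript. Tables were made on mm10 with annotation releases M21 and M4, per the deposited descriptions. Levels are deposited TPM from M21. Replicates were compared by log2 of (TPM + 1), replicate 1 over replicate 2, which understates differences of low genes, and by count ratio: expected counts were rounded, and an exact 95% Clopper-Pearson interval was scaled by the summed counts of genes. Intervals cover counting error only and leave out the spread between pools. They take each read as independent, which amplified reads are not, so they may be too narrow. Spike-ins took 2.85% and 3.10% of counts and stayed out of library sizes. The interval procedure was tested on simulated Poisson counts only, the model it assumes. That test therefore checks the calculation and does not cover amplification or spread between pools. TMM factors came from edgeR 4.0.16 (R 4.3.3); other steps used Python 3.11.15, scipy 1.17.1 and biopython 1.88 (global alignment of the longest coding sequences). All members were named; genes of the retinoid lists could be, and up to 3 of the highest of each cell type list. Some genes of these lists are not reported here. Members and lists were chosen with earlier results of these data known. The alternatives were other releases, estimates, pseudocounts, minimum levels, scalings and single replicates. Aligner, quantifier and strand setting: not given in the sources used here.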

Additional observations from a re-analysis of the deposited data

How the results depend on the processing

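No paired analysis was possible because the 2 libraries form 1 group. Leaving out a library left no ratio between pools; as levels, the summed TPM ranged from 116.98 to 140.78 for the Aldh1a genes, from 792.04 to 852.3 for the binding genes and from 29.46 to 31.82 for the breakdown genes, and 9 members were detected in each single library. With release M4 the binding genes summed to 867.53 TPM and the breakdown genes to 28.025 TPM. With spike-in scaling the log2 ratio of Dhrs3 was 0.0245, against -0.11 without it; the summed spike-in TPM differed by -0.14 (log2, replicate 1 over replicate 2). Of the 10 log2 ratios, 6 others shifted with this scaling by more than the error of their count ratio, taken as the distance on the log2 scale from the middle of its 95% interval to an end. All 10 shifted by less with a pseudocount of 0.1, with none, with release M4 and with posterior mean TPM. The number of detected members was 10 at a minimum of 0.5 TPM and 9 at 5. Aldh1a1 was the 1 member past a log2 ratio of 1 in size under every alternative tried. The depth limits Cyp26c1 and the minor transcripts of Dhrs3 and Cyp26a1, which rest on few counts.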

Other observations

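Genes that act with the receptors, or that respond to retinoic acid in other embryonic settings, were also present. All 8 listed coregulators were detected, with the corepressor Ncor1 highest at 156 and 146 TPM in replicates 1 and 2. Nrip1, a corepressor that retinoic acid induces in cultured cells, stood at 38.1 and 41.1 TPM. Of 9 responsive genes, 5 were detected, led by the homeobox genes Meis1 (85.2 and 88.3 TPM in replicates 1 and 2) and Meis2 (55.9 and 56.0 TPM). Of all protein-coding genes, 60.7% were detected. Hoxb1 (0.14 and 0.06 TPM), which retinoic acid controls in the hindbrain, was under 1 TPM. For Stra8, a germ cell gene, and Cdx1, a gene of the caudal embryo, each library held 0 counts (1-sided 95% upper limit for a count of 0: 3 counts). Cyp1b1, a cytochrome that can oxidise retinol, stood at 10.6 and 7.86 TPM in replicates 1 and 2.

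Some relatives of the members depended on the annotation release, and these were chosen after their values had been seen. Rarb had 975.05 counts in replicate 1 and 1564.96 in replicate 2 in release M21, against 1702 and 2643 in release M4. In M21 it has 7 transcripts and overlaps Top2b, a gene of the other strand with 10536 and 15651 counts; whether reads were counted by strand is unknown here. The level of Aldh2 in M21 was 1.46 times that in M4 in replicate 1 and 1.49 times in replicate 2, and that of Dhrs4 was 1.34 and 1.36 times.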
